A study of Mus musculus with 4 samples.

Results

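The transcripts followed here, 10 from the extracellular matrix and the fibroblasts that lay it down, were measured in 4 libraries of CD8 T cells sorted from mouse tumours. They are Sparc, Dcn, Col1a1, Col1a2, Col3a1, Bgn, Lum, Fn1, Mmp11 and Igfbp4, chosen by gene symbol, and all 10 were found among the 45773 genes kept in the tables. The gain experiment used Pmel-I CD8 T cells, whose transgenic receptor recognises the melanocyte antigen gp100, after transduction with Klf4 or with the empty vector MigRI. These were transferred on day 7 into Rag2 KO mice, which lack T and B cells of their own but keep their stromal and myeloid cells, carrying MC38 colon carcinoma made to express gp100. GFP-positive CD8 T cells were taken from the tumours on day 15. In the loss experiment, PD1-positive CD8 T cells were taken on day 14 from MC38 tumours of mice labelled Klf4 cKO and of control (WT) mice. The labels give no strain or age for any group, and neither the Cre driver nor the deleted part of Klf4 for the cKO mice. Each tumour was started with 300000 cells, each sample held 10000 to 20000 T cells, and each of the 4 groups was 1 library.

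The interstitial matrix is a mesh of fibrillar collagens with fibronectin and small leucine-rich proteoglycans on its fibres, secreted mainly by fibroblasts. Proteases of the metalloproteinase family and binding proteins for growth factors are released into it. T cells crawl along this mesh in tumours and bind it through integrins, but they are no usual source of fibrillar collagen.

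Values are TPM, which divide reads by transcript length and scale each library to the same total. Read depth is unknown, which leaves counting error unknown too, and with 1 library a group there was no replicate check, no test and no p-value. A difference is that of log2(TPM + 1) between the libraries of an experiment, which understates the change of low genes, and it was called at 1 log2, or 2-fold. Genes averaging 1 TPM or more over the libraries count as measured, 12570 in all, and the 10 matrix transcripts were among them. A low gene can pass this filter through 1 library where it is high, which favours a call for that library. The median difference over measured genes was 0.79 log2 in the gain experiment (Klf4-transduced minus MigRI) and 0.74 log2 in the loss experiment (cKO-labelled minus control), so differences are also given relative to that median gene. Klf4 itself was at 26.0 TPM in the Klf4-transduced library against 8.69 TPM in MigRI, and at 9.28 TPM in the cKO-labelled library against 7.52 TPM in control. The last pair differed by 0.27 log2 as deposited, against the cKO label, but by -0.47 log2 relative to the median gene. Its direction thus depends on the scale, and a gene-level value could miss the loss of a part of the gene. That library is therefore called cKO-labelled throughout.

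In the gain experiment all 10 transcripts were higher in the Klf4-transduced library, from 8.16-fold for Col1a2 to 31.3-fold for Mmp11 as ratios of TPM. Their summed level was 2274 TPM in the Klf4-transduced library, against 176 TPM in MigRI. In the loss experiment the sum was 315 TPM in the cKO-labelled library, against 45.1 TPM in control. There the ratios ran from 1.97-fold for Col1a1 to 35.6-fold for Lum. All 4 tables were scaled separately, so levels are set side by side between experiments without a difference, and only the likeness of profiles spans all 4.

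**Figure D1:**
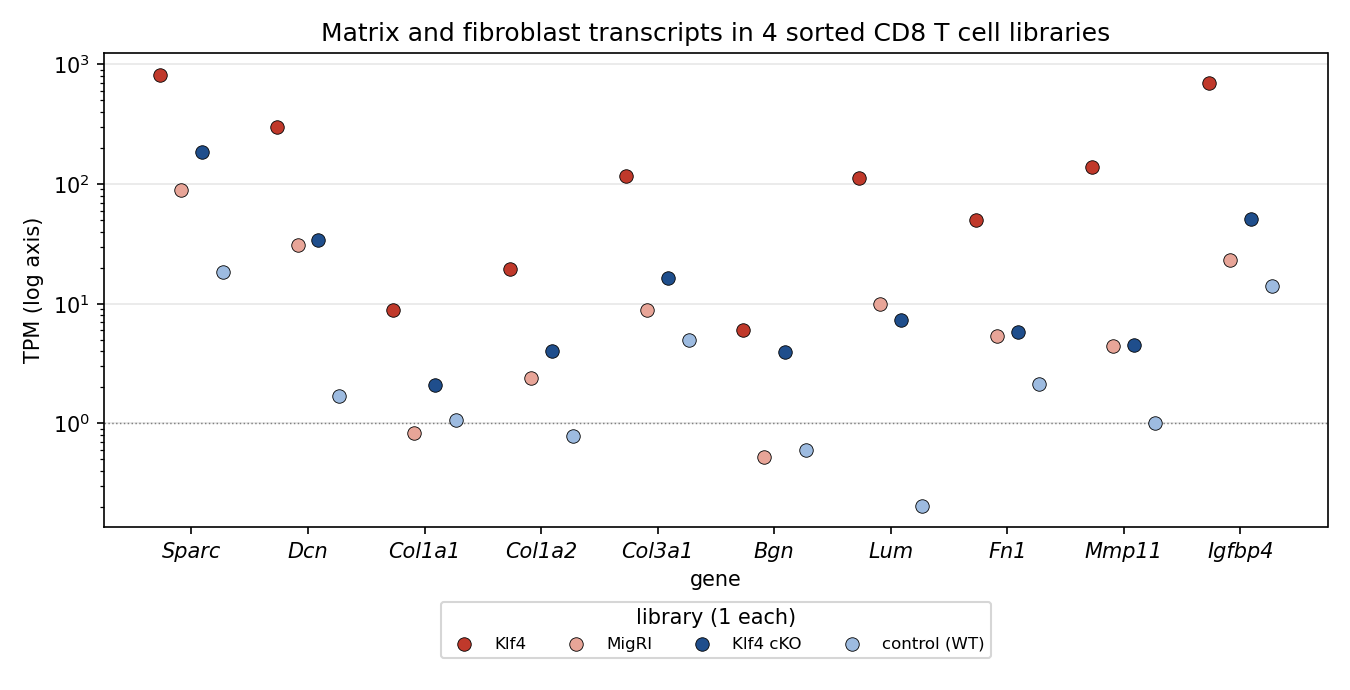
TPM of each of the 10 transcripts (log axis) in the Klf4-transduced, MigRI, Klf4 cKO and control (WT) libraries, 1 point a library, with a dotted line at 1 TPM. The Klf4-transduced library is the highest of the 4 for every gene, from 6.02 TPM for Bgn to 821 TPM for Sparc.

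Counted as calls, 10 of 10 were at least 2-fold higher in the Klf4-transduced library than in MigRI as deposited, where 43.7% of all measured genes were. Relative to the median gene it was again 10 of 10, where 21.4% of measured genes were. The median over the 10 was 3.21 log2 as deposited and 2.42 log2 relative to the median gene. In the cKO-labelled library, 9 of 10 were at least 2-fold higher than in control as deposited, where 38.4% of measured genes were. Relative to the median gene 4 of 10 were, where 12.4% of measured genes were, and the 4 were Dcn, Sparc, Lum and Igfbp4. The median over the 10 was 1.58 log2 as deposited and 0.85 log2 relative to the median gene. In the gain experiment 0 of 10 were at least 2-fold lower, where 10.3% of measured genes were on the deposited scale and 23.6% on the scale relative to the median gene. In the loss experiment 0 of 10 were at least 2-fold lower, where 6.92% and 16.2% of measured genes were on the same scales, in that order.

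**Figure D2:**
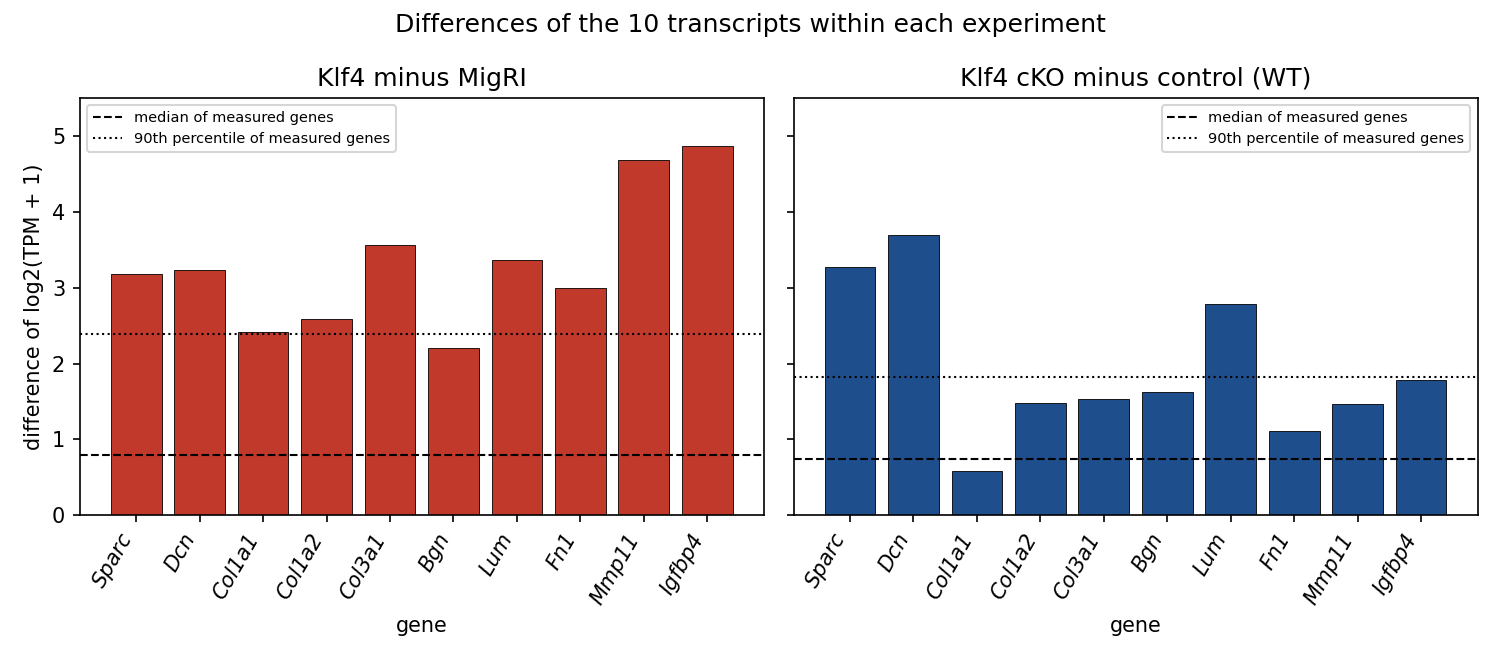
Difference of log2(TPM + 1) for each transcript, Klf4-transduced minus MigRI on the left and Klf4 cKO minus control (WT) on the right, with lines at the median and the 90th percentile of the 12570 measured genes. In the gain experiment 9 of the 10 bars pass the 90th percentile of 2.39 log2, and in the loss experiment Sparc, Dcn and Lum pass that of 1.83 log2.

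Sparc encodes osteonectin, a collagen-binding glycoprotein that is secreted by fibroblasts, endothelium and many tumour cells, and it was the most abundant of the 10 in all 4 libraries. It was at 821 TPM in the Klf4-transduced library, against 89.3 TPM in MigRI, a difference of 3.19 log2. It was at 186 TPM in the cKO-labelled library, against 18.4 TPM in control, a difference of 3.27 log2. Its level ranked 184th of the measured genes in the Klf4-transduced library and 1561st in MigRI. It ranked 835th in the cKO-labelled library and 2587th in control. In mm10 the gene lies on chromosome 11 from 55394500 to 55423183 on the minus strand.

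The fibrillar collagens were low beside Sparc. Col1a1 and Col1a2 encode the chains that together form type I collagen, the main fibre of skin, bone and scar, and Col3a1 encodes the chain of type III collagen, which is laid down with it in loose tissue. Col3a1 was at 116 TPM in the Klf4-transduced library, against 8.94 TPM in MigRI, a difference of 3.56 log2, and at 16.4 TPM in the cKO-labelled library, against 5.00 TPM in control, a difference of 1.54 log2. Col1a2 was at 19.4 TPM in the Klf4-transduced library, against 2.38 TPM in MigRI, and at 3.99 TPM in the cKO-labelled library, against 0.791 TPM in control, differences of 2.59 and 1.48 log2. Col1a1 was at 8.80 TPM in the Klf4-transduced library, against 0.836 TPM in MigRI, a difference of 2.42 log2. In the cKO-labelled library it was at 2.10 TPM, against 1.06 TPM in control, and its difference of 0.59 log2 was the only one of the 10 under 2-fold and the only one below the median gene. Col3a1 was thus the highest of the 3 collagen genes in every library, and Col1a1 was below Col1a2 in every library but control. In mm10, Col1a1 lies on chromosome 11 from 94936224 to 94953042, Col1a2 on chromosome 6 from 4504814 to 4541544 and Col3a1 on chromosome 1 from 45311538 to 45349706, all on the plus strand.

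Among the small leucine-rich proteoglycans, Dcn and Lum stood far above Bgn in both libraries of the gain experiment. Decorin (Dcn), biglycan (Bgn) and lumican (Lum) share a core of leucine-rich repeats, bind collagen fibrils and limit their thickness. Dcn was at 302 TPM in the Klf4-transduced library, against 31.1 TPM in MigRI, a difference of 3.24 log2, and at 34.0 TPM in the cKO-labelled library, against 1.71 TPM in control, a difference of 3.69 log2. Lum was at 112 TPM in the Klf4-transduced library, against 9.995 TPM in MigRI, a difference of 3.36 log2, and at 7.33 TPM in the cKO-labelled library, against 0.206 TPM in control, a difference of 2.79 log2. Bgn was at 6.02 TPM in the Klf4-transduced library, against 0.520 TPM in MigRI, a difference of 2.21 log2, and at 3.97 TPM in the cKO-labelled library, against 0.606 TPM in control, a difference of 1.63 log2. Dcn and Lum had the largest TPM ratios of the 10 in the loss experiment, 19.9-fold and 35.6-fold, although the ratio of Lum rests on a level under 1 TPM in control. The Dcn and Lum genes are neighbours on chromosome 10, from 97479609 to 97518143 and from 97565128 to 97572703 on the plus strand of mm10, with 46984 bases between them. Bgn lies on chromosome X from 73483602 to 73495933 on the plus strand.

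Fn1 encodes fibronectin, the glycoprotein that integrins assemble into fibrils and that macrophages and endothelium make as well as fibroblasts. It was at 49.8 TPM in the Klf4-transduced library, against 5.39 TPM in MigRI, a difference of 2.99 log2. In the cKO-labelled library it was at 5.80 TPM, against 2.15 TPM in control. That difference, 1.11 log2, was 0.37 log2 relative to the median gene. The gene lies on chromosome 1 of mm10 from 71585520 to 71653200 on the minus strand. The antisense gene Apol7d overlaps its first bases and was at 0.226 TPM in the Klf4-transduced library and listed at 0 in the other 3.

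Mmp11 and Igfbp4 stood apart from the rest in the gain experiment. Mmp11 encodes stromelysin-3, a metalloproteinase named for its expression in the stroma of carcinomas, and Igfbp4 encodes a secreted binding protein that holds insulin-like growth factors, and which naive mouse T cells are also known to express. Mmp11 was at 138 TPM in the Klf4-transduced library, against 4.41 TPM in MigRI, a difference of 4.69 log2. Igfbp4 was at 701 TPM in the Klf4-transduced library, against 23.1 TPM in MigRI, a difference of 4.86 log2 that only 2 other measured genes matched or passed. Their TPM ratios, 31.3-fold and 30.3-fold, were close to each other and well above the 8.16-fold to 13.0-fold of the other 8 transcripts. In the loss experiment Mmp11 was at 4.55 TPM in the cKO-labelled library, against 1.01 TPM in control, a difference of 1.47 log2. Igfbp4 was at 51.0 TPM in the cKO-labelled library, against 14.2 TPM in control, a difference of 1.78 log2. There both ratios, 4.51-fold and 3.60-fold, lay within the range of the others. Igfbp4 lies on chromosome 11 of mm10 from 99041244 to 99054392 on the plus strand, and Mmp11 on chromosome 10 from 75923222 to 75936496 on the minus strand. The annotated span of Mmp11 overlaps the gene Chchd10 on the opposite strand, and the kit does not mark strand. Chchd10 was at 82.2 TPM in the Klf4-transduced library against 352 TPM in MigRI, and the part of shared reads in the Mmp11 values was not tested.

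RefSeq's table for GRCm38.p6 holds promoters of 6 of the 10 genes: Sparc, Col1a2, Col3a1, Bgn, Mmp11 and Igfbp4. The 250 bases before the start are shown for the most abundant transcript, for a chain of type I collagen and for the pair with the largest gain. The start is that of RefSeq's table, which for Sparc, Col1a2 and Mmp11 lies inside the wider gene span given by GENCODE. Capitals mark CACCC (the box that Kruppel-like factors bind) and CCAAT and TATAAA, searched on both strands, so that CACCC also appears as GGGTG. The windows are chr11:55420081-55420330 on the minus strand for Sparc, chr6:4505368-4505617 on the plus strand for Col1a2, chr10:75932503-75932752 on the minus strand for Mmp11 and chr11:99040994-99041243 on the plus strand for Igfbp4.
Sparc: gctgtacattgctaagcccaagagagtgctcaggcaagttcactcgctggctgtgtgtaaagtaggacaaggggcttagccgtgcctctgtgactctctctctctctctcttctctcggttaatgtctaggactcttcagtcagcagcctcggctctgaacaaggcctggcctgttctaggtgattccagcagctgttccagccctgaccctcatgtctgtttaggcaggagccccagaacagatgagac
Col1a2: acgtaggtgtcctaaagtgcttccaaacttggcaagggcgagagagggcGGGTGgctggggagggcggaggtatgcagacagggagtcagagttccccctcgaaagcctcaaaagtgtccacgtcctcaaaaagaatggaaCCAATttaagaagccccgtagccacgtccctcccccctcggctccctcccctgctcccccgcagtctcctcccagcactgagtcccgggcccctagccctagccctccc
Mmp11: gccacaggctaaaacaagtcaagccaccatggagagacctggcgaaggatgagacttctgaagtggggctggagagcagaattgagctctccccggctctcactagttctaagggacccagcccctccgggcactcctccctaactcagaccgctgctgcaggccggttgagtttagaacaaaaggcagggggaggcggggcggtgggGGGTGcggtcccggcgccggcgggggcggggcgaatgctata
Igfbp4: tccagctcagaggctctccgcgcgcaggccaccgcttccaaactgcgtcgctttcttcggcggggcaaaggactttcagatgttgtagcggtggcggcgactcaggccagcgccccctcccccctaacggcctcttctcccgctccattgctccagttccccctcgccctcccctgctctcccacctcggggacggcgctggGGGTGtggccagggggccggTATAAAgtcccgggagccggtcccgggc
CACCC was present in 4 of the 6 promoters, Col1a2, Bgn, Mmp11 and Igfbp4, and in 52.0% of the 32851 promoters of the table. The match began 42 bases before the start in Mmp11, 48 bases before it in Igfbp4 and 201 bases before it in Col1a2. In Bgn matches began 208 and 186 bases before the start. CCAAT was present in 1 of the 6, Col1a2, and in 33.8% of all promoters. TATAAA was present in 2 of the 6, Col3a1 and Igfbp4, where it began 28 bases before the start of Igfbp4, and in 12.4% of all promoters. The Sparc window holds none of these letters. These are matches of letters and not measured binding.

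Proportions between the transcripts do not depend on how a library was scaled. In the gain experiment they changed by at most 0.67 log2 between any pair of 8 of the 10. That widest change was for Col3a1 to Col1a2, at 5.99 in the Klf4-transduced library, against 3.76 in MigRI, and Fn1 to Col3a1 was 0.428, against 0.603 in MigRI. Dcn stood at 0.368 of Sparc in the Klf4-transduced library, against 0.348 in MigRI. Fn1 stood at 0.0606 of Sparc in the Klf4-transduced library, against 0.0603 in MigRI, although Fn1 was 9.24-fold and Sparc 9.19-fold higher with Klf4. The ratio of Lum to Bgn was 18.6 in the Klf4-transduced library, against 19.2 in MigRI, and that of Col1a2 to Col1a1 was 2.20, against 2.84 in MigRI. Relative to Sparc, the log2 change of the other 7 of these 8 ran from -0.17 for Col1a2 to 0.50 for Col3a1. Mmp11 and Igfbp4 departed from the proportion by 1.77 and 1.72 log2 but kept theirs to each other, with 5.07 TPM of Igfbp4 per TPM of Mmp11 in the Klf4-transduced library, against 5.24 in MigRI.

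In the loss experiment the proportions moved. Dcn stood at 0.183 of Sparc in the cKO-labelled library, against 0.0930 in control, while Fn1 stood at 0.0312 of Sparc, against 0.117 in control. The ratio of Lum to Bgn was 1.84 in the cKO-labelled library, against 0.340 in control, and that of Col1a2 to Col1a1 was 1.90, against 0.743 in control. Igfbp4 stood at 0.275 of Sparc in the cKO-labelled library, against 0.772 in control. The log2 changes relative to Sparc ran from -2.36 for Col1a1 to 1.82 for Lum. Of the 10, 0 were under 1 TPM in the cKO-labelled library and 3 in control, against 0 in the Klf4-transduced library and 2 in MigRI, and the part of low levels in the scatter of these ratios was not tested.

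As a measure of this scatter, the SD of the 10 log2 TPM ratios was 0.70 for Klf4-transduced over MigRI and 1.32 for the cKO-labelled library over control. Over all measured genes above 0 in both libraries of a pair it was 1.64 in the gain experiment and 1.27 in the loss experiment. Without Mmp11 and Igfbp4, which were set aside after their values were seen, the SD of the other 8 was 0.22 in the gain experiment and 1.45 in the loss experiment. The log2 levels of the 10 correlated across genes with r = 0.96 between the Klf4-transduced and MigRI libraries and with r = 0.79 between the cKO-labelled library and control. These correlations are over 10 genes that share their libraries, and genes are not replicates.

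**Figure D3:**
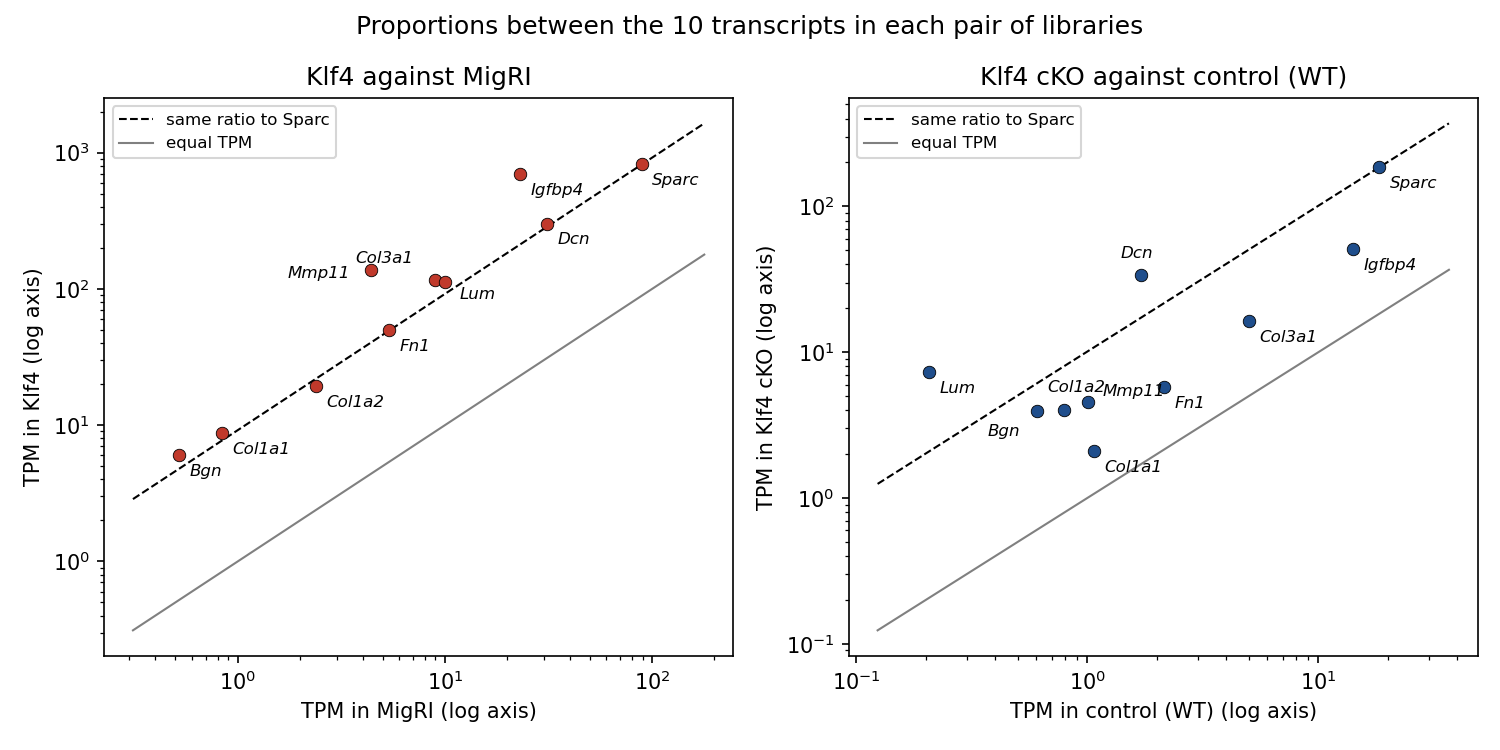
TPM of the 10 transcripts in the Klf4-transduced library against MigRI (left) and in the Klf4 cKO library against control (WT) (right), both axes log. The dashed line marks the ratio to Sparc kept, and the grey line marks equal TPM. On the left 8 transcripts lie along the dashed line with Mmp11 and Igfbp4 above it, and on the right Lum and Dcn lie above it and the other 7 below.

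The make-up of the matrix signal follows from these ratios. Sparc made up 36.1% of the summed TPM of the 10 in the Klf4-transduced library, against 50.7% in MigRI, and Igfbp4 made up 30.8%, against 13.1% in MigRI. In the cKO-labelled library, Sparc made up 59.0%, against 40.7% in control, and Igfbp4 made up 16.2%, against 31.5% in control. Col1a1, Col1a2 and Bgn each stayed under 3% in all 4 libraries.

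Genes that build and remodel the collagen fibre were higher with Klf4 as well. In the list of collagen maturation and crosslinking, 10 of 10 measured genes were at least 2-fold higher in the Klf4-transduced library than in MigRI. Over all measured genes 43.7% were, and the median of the list was 3.57 log2. Mrc2 passed the filter only through the Klf4-transduced library, which favours this count. In the cKO-labelled library 4 of 10 were at least 2-fold higher than in control, near the 38.4% of all measured genes. The median of the list there was 0.82 log2, or 0.09 log2 relative to the median gene. The collagen chaperone Serpinh1 was at 406 TPM in the Klf4-transduced library, against 28.2 TPM in MigRI, and at 14.8 TPM in the cKO-labelled library, against 9.62 TPM in control. Pcolce, which speeds the trimming of procollagen, was at 618 TPM in the Klf4-transduced library, against 36.9 TPM in MigRI, and at 38.0 TPM in the cKO-labelled library, against 6.15 TPM in control. The lysyl hydroxylase Plod1 was at 53.7 TPM in the Klf4-transduced library, against 2.33 TPM in MigRI. Lox, the lysyl oxidase that crosslinks collagen, was listed at 0 in both of these libraries.

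Other interstitial collagens followed the members in the gain experiment more than in the loss experiment. Of 7 measured, 7 were at least 2-fold higher in the Klf4-transduced library than in MigRI, where 43.7% of measured genes were. Their median was 2.67 log2. Col8a1 and Col16a1, at 7.50 and 10.4 TPM in the Klf4-transduced library, passed the filter only through that library, which favours the count of 7. Of the same 7, 1 was at least 2-fold higher in the cKO-labelled library than in control, where 38.4% of measured genes were. Their median was 0.69 log2, close to that of all measured genes. Col6a1, a chain of the beaded-filament type VI collagen, was at 105 TPM in the Klf4-transduced library, against 6.81 TPM in MigRI, and at 7.64 TPM in the cKO-labelled library, against 4.28 TPM in control. Col5a1, which nucleates type I fibrils, was at 58.9 TPM in the Klf4-transduced library, against 5.89 TPM in MigRI, and at 4.87 TPM in the cKO-labelled library, against 1.07 TPM in control. Of 12 listed genes of the basement membrane, the sheet under epithelium and endothelium, 5 were measured. All 5 were at least 2-fold higher in the Klf4-transduced library than in MigRI and 0 in the cKO-labelled library than in control. Their medians were 1.83 and 0.75 log2. The shares over all measured genes were 43.7% and 38.4%. Lama4, at 4.04 TPM in the Klf4-transduced library, passed the filter only through that library, which favours the count of 5.

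Matrix glycoproteins and genes of the elastic fibre held 13 of 15 at least 2-fold higher in the Klf4-transduced library than in MigRI and 8 of 15 in the cKO-labelled library than in control, with medians of 3.13 and 1.02 log2. The shares over all measured genes were 43.7% and 38.4%. Relative to the median gene the medians of the list were 2.34 and 0.28 log2. Tnc, Fbn1 and Ltbp1 passed the filter only through the Klf4-transduced library, which favours the count of 13. Ccn1, a matricellular protein and an early target of serum and stretch, was at 1022 TPM in the Klf4-transduced library, against 51.0 TPM in MigRI, and at 51.3 TPM in the cKO-labelled library, against 7.96 TPM in control. Efemp2, which is needed to assemble elastic fibres, was at 302 TPM in the Klf4-transduced library, against 24.1 TPM in MigRI, and at 20.3 TPM in the cKO-labelled library, against 5.998 TPM in control. Mfap4 was at 59.1 TPM in the Klf4-transduced library, against 1.65 TPM in MigRI. Of the further small leucine-rich and other proteoglycans only Aspn passed the filter, at 9.25 TPM in the Klf4-transduced library, against 1.30 TPM in MigRI.

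Beside Mmp11, 8 metalloproteinases and inhibitors were measured. All 8 were at least 2-fold higher in the Klf4-transduced library than in MigRI, with a median of 2.53 log2, and 4 of 8 in the cKO-labelled library than in control, with a median of 1.03 log2. The shares over all measured genes were 43.7% and 38.4%. Relative to the median gene the medians of the list were 1.73 and 0.30 log2. The gelatinase Mmp2 was at 148 TPM in the Klf4-transduced library, against 7.12 TPM in MigRI, and at 8.61 TPM in the cKO-labelled library, against 1.41 TPM in control. Mmp14, the membrane protease that activates it, was at 122.8 TPM in the Klf4-transduced library, against 5.95 TPM in MigRI. Mmp9, a protease of myeloid cells, was at 7.01 TPM in the Klf4-transduced library and listed at 0 in MigRI. Mmp9 and Mmp13 passed the filter only through the Klf4-transduced library, which favours the count of 8 there.

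In the gain experiment the insulin-like growth factor axis did not move as a group with Igfbp4. Of 5 measured genes beside Igfbp4, 1 was at least 2-fold higher and 2 were as much lower in the Klf4-transduced library than in MigRI, with a median of 0.04 log2. Of the same 5, 3 in the cKO-labelled library were at least 2-fold higher than in control and 0 lower, with a median of 1.97 log2. Igfbp3, at 4.66 TPM in the cKO-labelled library, passed the filter only through that library, which favours that count and that median. Over all measured genes 43.7% were higher and 10.3% lower in the gain experiment, and 38.4% and 6.92% in the loss experiment. Igfbp6 was at 182 TPM in the Klf4-transduced library, against 30.5 TPM in MigRI. Igfbp7 was at 7.62 TPM in the Klf4-transduced library, against 29.2 TPM in MigRI, but at 149 TPM in the cKO-labelled library, against 23.4 TPM in control. Igfbp2 was at 2.63 TPM in the Klf4-transduced library, against 15.5 TPM in MigRI.

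Of 10 measured receptors for matrix, 7 were at least 2-fold higher and 1 lower in the Klf4-transduced library than in MigRI, and 1 was higher and 0 lower in the cKO-labelled library than in control. The medians were 2.01 and 0.33 log2. Over all measured genes 43.7% were higher and 10.3% lower in the gain experiment, and 38.4% and 6.92% in the loss experiment. Itgb5, an integrin chain that binds vitronectin, was at 61.1 TPM in the Klf4-transduced library, against 2.60 TPM in MigRI, and at 2.08 TPM in the cKO-labelled library, against 2.20 TPM in control. Ddr2, a receptor kinase for fibrillar collagen on mesenchymal cells, was at 11.4 TPM in the Klf4-transduced library, against 0.689 TPM in MigRI. Ddr1 and Ddr2 passed the filter only through the Klf4-transduced library, which favours the count of 7. Lair1, an inhibitory collagen receptor of leukocytes, was at 17.4 TPM in the Klf4-transduced library, against 2.10 TPM in MigRI, and at 5.32 TPM in the cKO-labelled library, against 1.29 TPM in control.

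**Figure D4:**
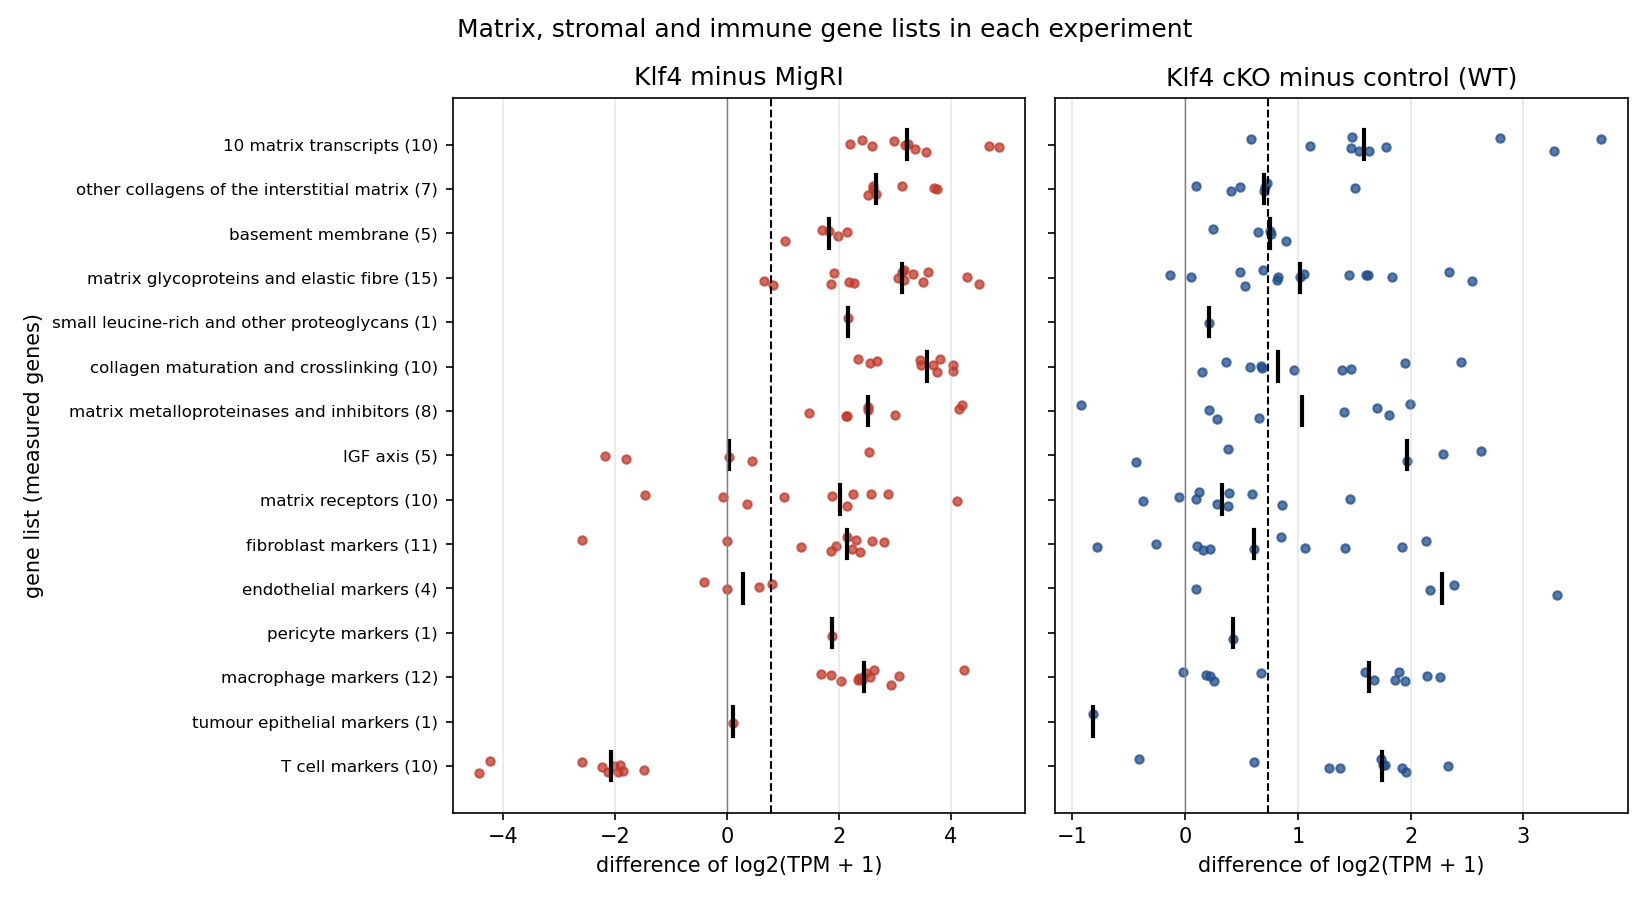
Difference of log2(TPM + 1) for each measured gene (point) of the 10 transcripts and of 14 gene lists, Klf4-transduced minus MigRI on the left and Klf4 cKO minus control (WT) on the right, with the number of measured genes in brackets, a black bar at each list's median and a dashed line at the median measured gene. T cell markers have a median of -2.07 log2 on the left and 1.75 log2 on the right, while the 10 transcripts have medians of 3.21 and 1.58 log2.

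Fibroblast markers were mostly higher in the Klf4-transduced library, but in the loss experiment they stayed near the background. Of the 16 fibroblast markers 11 were measured, of which 9 were at least 2-fold higher and 1 lower in the Klf4-transduced library than in MigRI, and 4 higher and 0 lower in the cKO-labelled library than in control. Their medians were 2.15 and 0.61 log2, or 1.36 and -0.13 log2 relative to the median gene. Over all measured genes 43.7% were higher and 10.3% lower in the gain experiment, and 38.4% and 6.92% in the loss experiment. Twist1, a mesenchymal transcription factor, was at 19.4 TPM in the Klf4-transduced library, against 1.92 TPM in MigRI, and at 1.89 TPM in the cKO-labelled library, against 0.382 TPM in control. The fibroblast receptors Pdgfra and Pdgfrb were at 6.15 and 9.02 TPM in the Klf4-transduced library, against 0.379 and 0.666 TPM in MigRI. They were at 0.481 and 1.12 TPM in the cKO-labelled library, against 0.274 and 1.54 TPM in control. The contractile genes Acta2 and Tagln were at 5.77 and 4.74 TPM in the cKO-labelled library, against 0.543 and 0.512 TPM in control. In the gain experiment they parted. Acta2 was at 3.64 TPM in the Klf4-transduced library, against 0.272 TPM in MigRI, but Tagln was at 0.319 TPM, against 0.313 TPM in MigRI. Pdgfra passed the filter only through the Klf4-transduced library and Tagln only through the cKO-labelled library. Each favours the count of higher genes in its experiment. Thy1, which both fibroblasts and T cells carry, was at 4.53 TPM in the Klf4-transduced library, against 32.2 TPM in MigRI. Tcf21 was listed at 0 in all 4 libraries, and Cxcl12 and Clec3b were at 0 in the Klf4-transduced library and in control. Cxcl12 was at 3.62 TPM in the cKO-labelled library and at 0 in MigRI. The summed TPM of the fibroblast list ran from 339 to 3010 over the libraries, but it is carried by S100a4, Vim and Thy1, which T cells also express.

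The macrophage list held 13 genes, none at 0 in any library, and 12 were measured. Of these, 12 were at least 2-fold higher in the Klf4-transduced library than in MigRI, where 43.7% of measured genes were. In the cKO-labelled library 7 were at least 2-fold higher than in control, where 38.4% of measured genes were. The summed level of the list was 5278 TPM in the Klf4-transduced library, against 998 TPM in MigRI, and 1236 TPM in the cKO-labelled library, against 373 TPM in control. The complement gene C1qa was at 313 TPM in the Klf4-transduced library, against 36.4 TPM in MigRI. The sum of the 10 matrix transcripts was 0.431 of the macrophage sum in the Klf4-transduced library, against 0.176 in MigRI, and 0.255 in the cKO-labelled library, against 0.121 in control. The part of these cells in the matrix differences was not tested. In bulk samples such as these, fewer cells of a type and less RNA per cell cannot be told apart.

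T cell markers were present in all 4 libraries, with each of the 10 on the list above 1 TPM, but they moved with the matrix transcripts in opposite ways in the 2 experiments. All 10 were at least 2-fold lower in the Klf4-transduced library than in MigRI, where 10.3% of measured genes were. Of the 10, 8 were at least 2-fold higher in the cKO-labelled library than in control, where 38.4% of measured genes were. The sum of the T cell markers was 5813 TPM in the Klf4-transduced library, against 24626 TPM in MigRI, and 18556 TPM in the cKO-labelled library, against 7972 TPM in control. The matrix sum was therefore 0.391 of the T cell sum in the Klf4-transduced library, against 0.00715 in MigRI, a ratio 54.7-fold higher. It was 0.0170 of the T cell sum in the cKO-labelled library, against 0.00565 in control, a ratio 3.00-fold higher. Set against the mean of the receptor genes Trac, Trbc1 and Trbc2, the median of the 10 was 5.25 log2 in the gain experiment and -0.23 log2 in the loss experiment, so its direction in the loss experiment turned. On that scale the median over all measured genes was 2.83 log2 in the gain experiment and -1.08 log2 in the loss experiment.

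Markers of the tumour itself were low. Of 10 epithelial and melanocyte markers, none reached 2 TPM in the Klf4-transduced, MigRI or cKO-labelled library, but Pmel was at 4.00 TPM in control. Krt19, Krt20 and Cldn4 were listed at 0 in all 4 libraries. These markers do not gauge tumour cells that have lost epithelial genes. Differences moved with transcript length in both experiments. In the gain experiment genes under 1000 nucleotides had a median difference of -0.34 log2 and the 7742 genes of at least 2000 nucleotides one of 1.07 log2. In the loss experiment these medians were 0.26 and 0.73 log2. The longest transcripts of the 10 members run from 2288 to 8315 nucleotides, and relative to the long genes their median was 2.14 log2 in the gain experiment, with 10 of 10 at least 2-fold above, and 0.85 log2 in the loss experiment, with 4 of 10. Of all measured genes, 15.4% in the gain and 12.5% in the loss experiment were at least 2-fold above the long genes.

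The mean profile of the 10 was not peculiar to matrix genes. Among 3431 other genes that averaged 20 TPM or more, likeness was measured as the Euclidean distance between profiles of log2(TPM + 1) over the 4 libraries, each centred on its own mean. This measure spans both experiments, whose tables were scaled separately. The nearest gene was P4hb, the disulfide isomerase that is also a subunit of the collagen prolyl hydroxylase, at a distance of 0.14. It was at 462 TPM in the Klf4-transduced library, against 41.1 TPM in MigRI, and at 61.7 TPM in the cKO-labelled library, against 15.3 TPM in control. Fos, Rhoc, Pgm2, Lamp1, Tnf, Tuba1a, Ctsb and Gbp2 were also among the 10 nearest, at distances up to 0.34, and P4hb alone of the 10 is on a matrix list. The members themselves lay at distances from 0.44 for Col3a1 to 2.00 for Bgn, against a median of 2.34 over the 3431 genes, and 1387 of these lay nearer than Bgn.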

How the data were processed

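The data were 4 SMART-seq libraries, 1 per group, made from sorted tumour CD8 T cells with the SMART-seq v4 kit per the labels' protocols. The authors deposited gene-level TPM, 1 table per library, and per the submitters' processing notes they used Trimmomatic, HISAT2, StringTie and edgeR with mm10. The sources used here do not give roles, versions or annotation, so these are not stated. In the control library's file, 26 symbols had become dates, of which 22 were mapped back by name and the 4 ambiguous genes were left out of all tables.

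Differences of log2(TPM + 1) and ratios of TPM were computed in Python 3.11.15 with pandas 2.3.3. The code for the calls was tried on simulated data with a small noise set in advance. These left out genes low in the reference library, so they do not gauge how reliable calls on low genes are. Positions and transcript lengths (found for 93.6% of measured genes) were those of GENCODE vM21, mm10, and promoters from RefSeq's GRCm38.p6 table. Named genes were the 10 members, from each list up to 4 measured genes that differed most, the 10 nearest profiles, of which 1 is not reported here, and Klf4. Lox, Acta2, Tagln, Tcf21, Cxcl12, Clec3b, Krt19, Krt20, Cldn4, S100a4, Vim and Chchd10 were named after their values were seen. So were Col8a1, Col16a1, Mrc2, Tnc, Fbn1, Ltbp1, Mmp13 and Ddr1. The members and lists were chosen with earlier results of these data known. Alternatives were other pseudocounts, filters and scalings, and 1 added after seeing the data, the median of genes of at least 2000 nucleotides.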

Additional observations from a re-analysis of the deposited data

How the results depend on the processing

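With 1 library a group, none could be left out, and no paired analysis was possible because the groups share no more than 1 replicate number and no test was made. The gain experiment kept 10 of 10 transcripts at least 2-fold higher under all alternatives, except 9 of 10 with a pseudocount of 5 and 8 of 8 left at a mean of at least 5 TPM, and its median ran from 2.14 to 5.25 log2. There the share of all kept genes at least 2-fold higher ran from 13.9% without a filter to 90.2% relative to the receptor genes. In the loss experiment the count of 9 was 8 of the 8 left at a mean of at least 5 TPM, and it fell to 6 with quantile normalization (median 1.17 log2), to 5 with a pseudocount of 5 or with median of ratios scaling, to 4 relative to the median gene or to the long genes, and to 2 relative to Trac, Trbc1 and Trbc2. The median of 1.58 log2 was 0.89, 0.98, 0.85, 0.85 and -0.23 log2 under the 5 alternatives after quantile normalization, in that order. The share of all kept genes at least 2-fold higher fell too. It was 15.1% with quantile normalization, 21.1% with a pseudocount of 5 and 13.6% with median of ratios scaling. It was 12.4% relative to the median gene, 12.5% relative to the long genes and 0.716% relative to the receptor genes. Against the receptor genes 9 of the 10 were still above the median gene. Against the receptor genes, values were -0.19 log2 for Bgn, -1.23 for Col1a1, -0.34 for Col1a2, -0.28 for Col3a1, -0.71 for Fn1, -0.041 for Igfbp4 and -0.35 for Mmp11. With 1 added to both TPM values, the SD of the 10 log2 changes was 0.88 in the gain experiment and 0.99 in the loss experiment, since an added 1 compresses the low genes. Among all measured genes the share of calls that were higher was 81.0% for the gain and 84.7% for the loss experiment in the TPM tables, 47.5% and 43.4% against the median gene, and 99.1% and 1.31% relative to the receptor genes. The depth behind the values is unknown, and levels under 1 TPM, as of Lum, Bgn and Col1a2 in control, are the least certain.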

Other observations

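Measured endothelial markers did not follow the matrix transcripts in the gain experiment, but 3 of 4 were higher in the loss experiment. In the gain experiment 0 of the 4 were at least 2-fold higher or lower, with a median of 0.28 log2. Over all measured genes 43.7% were higher and 10.3% lower. In the loss experiment 3 of the 4 were at least 2-fold higher, where 38.4% of measured genes were, and their median was 2.28 log2. Pecam1 was the other, at 1.96 TPM in the cKO-labelled library, against 1.77 TPM in control. Plvap, which forms the diaphragms of fenestrated vessels, was at 8.84 TPM in the cKO-labelled library and listed at 0 in control, and at 1.80 TPM in the Klf4-transduced library, against 0.602 TPM in MigRI. Emcn, a sialomucin of capillaries and veins, was at 4.22 TPM in the cKO-labelled library and listed at 0 in the other 3 libraries. Plvap and Emcn passed the filter only through the cKO-labelled library, which favours that count and that median. Only the 4 measured of the 10 listed markers reached 1 TPM in the cKO-labelled library. Of the pericyte markers 1 was measured, Des, at 4.05 TPM in the Klf4-transduced library, against 0.378 TPM in MigRI, and it passed the filter only through the former. Igfbp7, which tumour vessels express, was higher in the cKO-labelled library than in control too, by 2.62 log2, but unlike these markers it was at least 2-fold lower in the Klf4-transduced library than in MigRI, at -1.81 log2. Pmel, the only measured marker of the tumour list, was at 1.84 TPM in the cKO-labelled library, against 4.00 TPM in control.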
